A study of Mus musculus with 6 samples.

Results

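The 37 genes described here drive or mark the cell cycle. They are the D and E cyclins with their kinases, the replication licensing and nucleotide genes, the cyclins, kinases and spindle proteins of mitosis, and a pair of inhibitors of cyclin-dependent kinases. They were taken by gene symbol from the deposited count table of 6 mouse lung libraries. That rule uses no measured value, but the members and their groups were chosen with earlier results of these data known. All 37 were found among the 54532 genes of the table, and all 37 passed the filter on low counts with 16568 genes in all. The symbols were sorted by textbook role into 7 groups, and the 18 genes of the last 3 steps (mitotic entry, mitotic kinases with checkpoint and exit, and kinetochore, spindle and chromosome structure) are called the mitotic genes below.

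The libraries came from lung tissue of 3 GR+/+ and 3 GRdim/dim mice, 1 animal per library. GRdim/dim mice carry a point mutation on both alleles of the glucocorticoid receptor gene (Nr3c1tm3Gsc) in the whole animal, which impairs receptor dimerization, and GR+/+ mice were their littermates on the mixed 129/SvEv and C57BL/6 background. The mice were 10 to 16 weeks old, with 2 females and 1 male in the GR+/+ group and 1 female and 2 males in the GRdim/dim group. All 6 had the same hemorrhagic shock under anesthesia and ventilation. Blood was drawn until arterial pressure averaged 35 mmHg, which was held for 1 h, followed by return of the shed blood and 4 h of resuscitation with colloids and norepinephrine. Lungs of unshocked mice were not analysed here. The values compare genotypes after shock and give no effect of shock itself.

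Cells enter the cycle when D cyclins activate CDK4 and CDK6, which releases E2F transcription factors from the retinoblastoma protein and switches on cyclin E and the replication genes. The genes of G2 and mitosis follow later, and in resting cells they are held off by the DREAM complex, which binds the CHR element of their promoters, while the factor NF-Y binds CCAAT boxes close by. In the adult lung very few cells divide, so mitotic transcripts are scarce. D cyclins and CDK4 are also present in cells that do not divide.

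The promoters below show where the letters of these elements lie before 3 of the mitotic genes. They are those of Top2a, Cdk1 and Ccnb1, the members with an entry in the RefSeq promoter table (GRCm38.p6) whose libraries did not overlap between genotypes. Each is written 5′ to 3′ on the strand of the gene and ends before the deposited gene model begins. Capitals mark CHR letters (TTTGAA or TTCGAA) and CCAAT letters, on either strand.
Top2a, chr11:99024190-99024439, minus strand: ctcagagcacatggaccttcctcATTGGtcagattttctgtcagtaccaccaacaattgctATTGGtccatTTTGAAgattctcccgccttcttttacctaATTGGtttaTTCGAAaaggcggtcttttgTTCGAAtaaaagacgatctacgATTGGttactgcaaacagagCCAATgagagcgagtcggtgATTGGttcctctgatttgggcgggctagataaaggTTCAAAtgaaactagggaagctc
Cdk1, chr10:69352939-69353162, minus strand: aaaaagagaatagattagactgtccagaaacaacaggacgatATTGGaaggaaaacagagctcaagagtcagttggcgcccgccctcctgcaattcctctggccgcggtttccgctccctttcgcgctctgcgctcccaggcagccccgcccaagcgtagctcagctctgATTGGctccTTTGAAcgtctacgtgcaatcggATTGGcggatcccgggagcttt
Ccnb1, chr13:100786571-100786736, minus strand: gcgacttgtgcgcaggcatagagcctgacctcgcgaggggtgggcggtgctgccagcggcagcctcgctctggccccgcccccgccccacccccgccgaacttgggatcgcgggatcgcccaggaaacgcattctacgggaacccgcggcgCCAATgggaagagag
In the 250 bases before the RefSeq start, Top2a had 4 CHR and 6 CCAAT matches. Cdk1 had 2 CHR and 3 CCAAT matches, of which 1 CHR match lies in the 26 bases left out because the deposited gene model covers them. Ccnb1 had 2 CCAAT matches, of which 1 lies in the 84 bases left out, and no CHR letters in this window.

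Promoter entries were found for 31 of the 37 genes, and those of Aurkb, Ccna2, Ccnd1, Ccnd2, Ccne2 and Foxm1 were not matched. CCAAT was present in 24 of 31 genes (77.4%) against 37.5% of the 27025 genes in the table. The GC box GGGCGG was also present in 24 of 31 (77.4%) against 35.4%. The CHR letters were present in 8 of 31 (25.8%) against 19.6%, and an E2F site (TTTCCCGC or TTTGGCGC) in 3 of 31 (9.68%) against 1.51%. The glucocorticoid receptor half-site AGAACA was present in 6 of 31 (19.4%) against 18.2% of all genes. By role, CHR letters stood before 3 of 5 kinetochore, spindle and chromosome genes, 2 of 4 mitotic entry genes, 2 of 6 mitotic kinase and checkpoint genes and 1 of 8 replication genes, and before no G1, G1/S or inhibitor gene. CCAAT letters stood before all 4 mitotic entry genes and all 5 kinetochore, spindle and chromosome genes with an entry. They also stood before 7 of 8 replication genes and 5 of 6 mitotic kinase and checkpoint genes. Of the rest, 1 of 3 G1 genes, 1 of 3 G1/S genes and 1 of 2 inhibitors had them. The 27025 genes were not matched to the members for level or base composition. A match says only that the letters are there. None of these windows was measured for binding in this study.

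**Figure D1:**
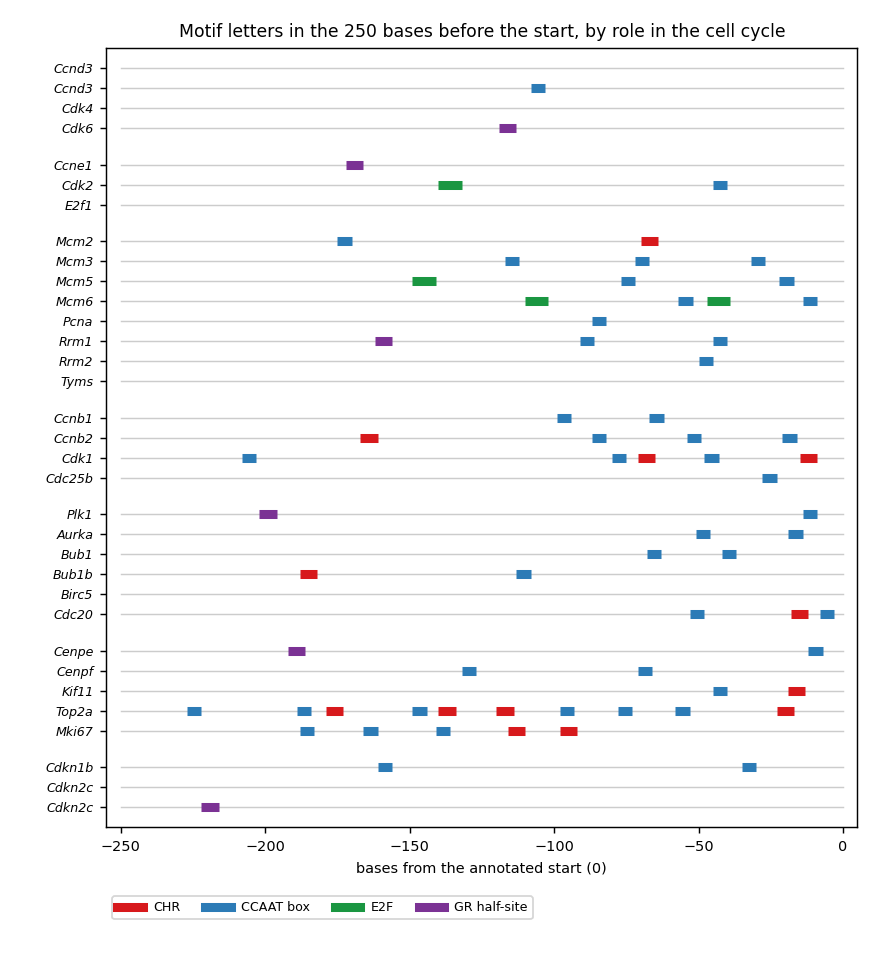
Positions of CHR, CCAAT, E2F and glucocorticoid receptor half-site letters in the 250 bases before the RefSeq start of the 31 genes with a promoter entry (x axis: bases from the start; each grey line is an entry, grouped by role). Red CHR bars lie in the mitotic groups and in 1 replication gene (Mcm2), with 4 before Top2a, while blue CCAAT bars stand before 24 genes.

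Total counts were 16361747 to 32082940 in GR+/+ and 15687734 to 24444604 in GRdim/dim. The mutated gene Nr3c1 was read at 148 ± 12.2 CPM in GR+/+ and 143 ± 20.2 CPM in GRdim/dim (SD, n = 3 each; CPM, the count of a gene scaled to a common library size). A gene count does not show a point mutation, so it does not check the genotype labels. As a check of the tissue, 6 markers of alveolar type 2 cells summed to 16810 to 25003 CPM and 6 endothelial markers to 2326 to 3393 CPM in the libraries.

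Across the 37 genes the levels spanned more than 2 orders of magnitude. Per kilobase of gene model, the highest mean level was that of Cdkn1b (p27, an inhibitor of cyclin-dependent kinases) at 36.4 CPM per kilobase. Pcna, the sliding clamp of replication, followed at 29.9 and Cdk4 at 29.8 CPM per kilobase, then Ccnd1 at 25.3 and Ccnd3 at 15.2. The lowest were Cenpf at 0.138 and Cenpe at 0.205 CPM per kilobase, both kinetochore proteins of mitosis, and Ccnb1 at 0.520. The mitotic genes lay between 0.138 and 10.1 CPM per kilobase, and their top value was that of the phosphatase Cdc25b. Apart from Cdc25b, no mitotic gene was above 2.41 CPM per kilobase, the level of Cdc20. These low genes rest on few reads: counts in single libraries went down to 9 (Cenpf) and 15 (Ccnb1), against 709 to 4593 for the D cyclins and their kinases.

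**Figure D2:**
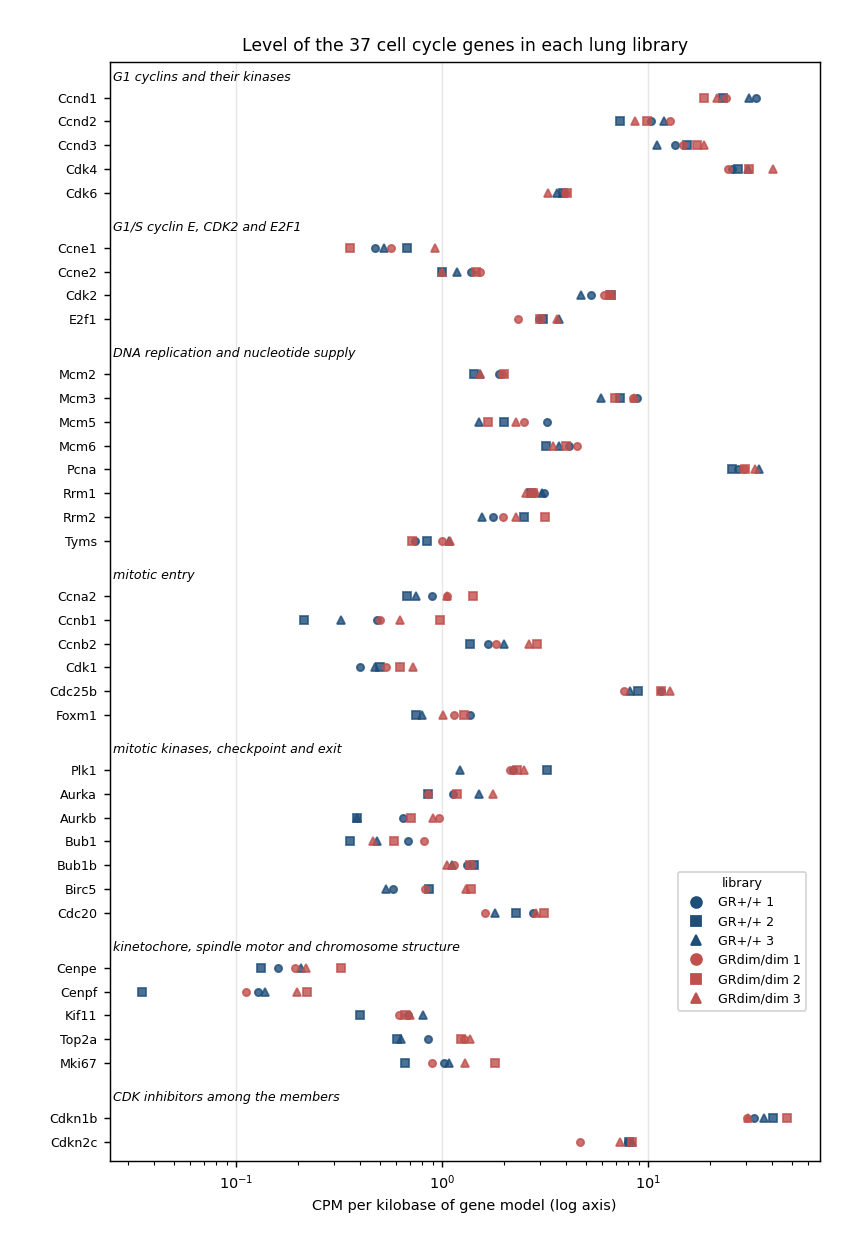
Level of each of the 37 genes in each of the 6 libraries, in CPM per kilobase of gene model on a log axis, grouped by role (blue GR+/+, red GRdim/dim; circle, square and triangle are replicates 1, 2 and 3). The D cyclins, Cdk4, Pcna and Cdkn1b sit at the right, and Ccnb1, Cenpe and Cenpf at the left.

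The comparison asks whether the lungs of GRdim/dim mice differed from those of GR+/+ mice in the transcripts of the cell cycle machinery after shock. No member passed the test in either direction (0 of 37 at an adjusted p under 0.05 and a log2 fold change beyond 0.5, edgeR quasi-likelihood test with Benjamini-Hochberg adjustment). Over all genes tested the same rule called 28 of 16568, or 0.169%. DESeq2 called 0 of the 37 as well, beside 274 of the 31346 genes to which it gave a p. The lowest adjusted p of a member was 0.278 in edgeR and 0.0687 in DESeq2, both for Top2a. At an unadjusted p under 0.05 in edgeR, 3 of 37 members were higher in GRdim/dim (Top2a, Ccnb1, Birc5), beside 4.91% of all genes. Ccnd1 was the 1 of 37 that was lower, beside 4.68% of all genes. In DESeq2 these 4 genes had an unadjusted p under 0.05, beside 1851 of 31346 genes.

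The fitted differences lay above 0 for 29 of 37 members, with a median log2 fold change of 0.16, beside 50.9% and a median of 0.0064 for all genes tested. Among the mitotic genes 17 of 18 lay above 0 with a median of 0.49, and among the 19 other members 12 did so with a median of 0.08. By role the medians were 0.08 for the G1 cyclins and their kinases, 0.15 for the G1/S genes and 0.10 for the replication genes. They were 0.50 for mitotic entry, 0.16 for mitotic kinases, checkpoint and exit, 0.55 for kinetochore, spindle and chromosome structure, and -0.14 for the inhibitors. These are descriptions of a list whose genes share libraries, and no test of the list was made. The list and its role groups were chosen with earlier results of these data known. In whole lung RNA, a lower or higher number of cycling cells and a different amount of RNA in each cannot be told apart.

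**Figure D3:**
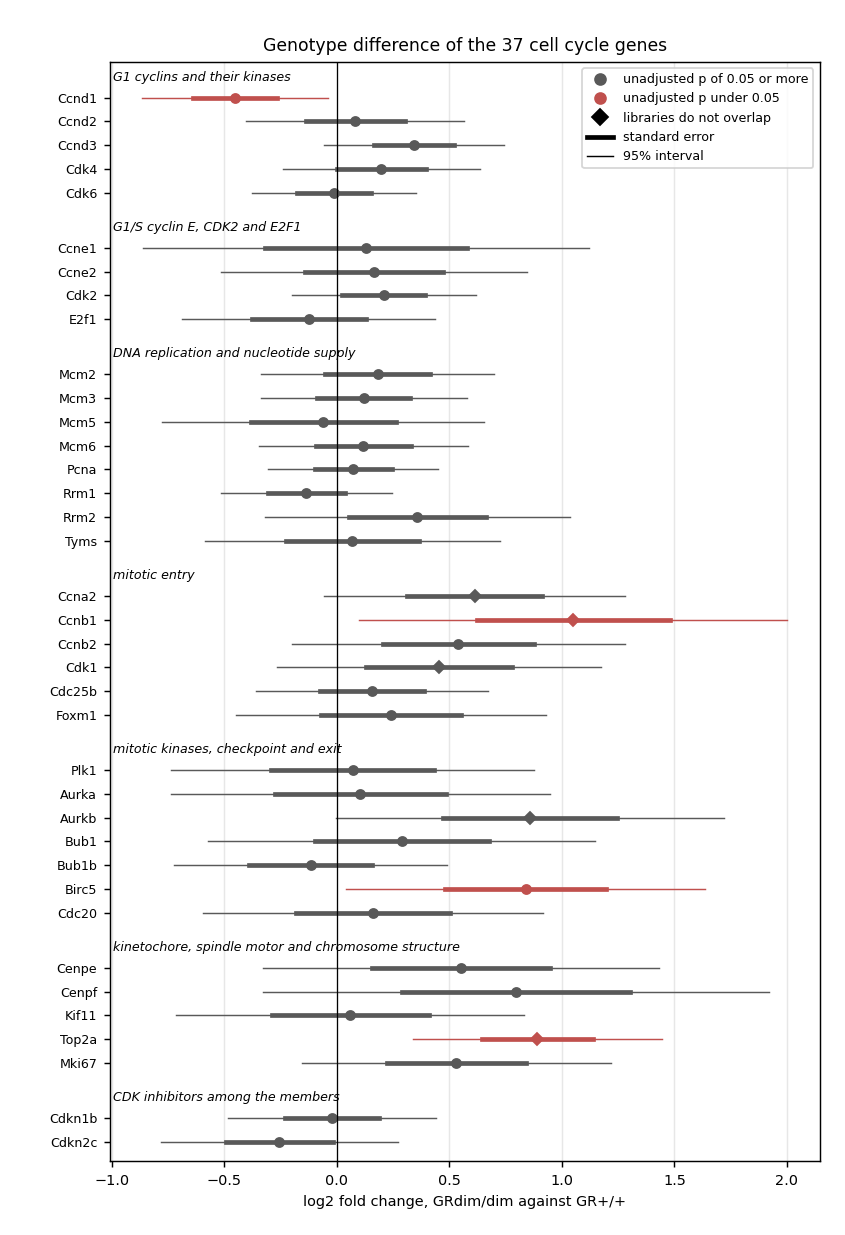
Fitted log2 fold change of GRdim/dim against GR+/+ for each of the 37 genes, grouped by role (thick bar, standard error; thin bar, 95% interval; red, unadjusted p under 0.05; diamond, libraries that do not overlap between genotypes). All mitotic genes but Bub1b lie right of 0, and most intervals cross it; Ccnd1 is the red point on the left.

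Libraries of the genotypes did not overlap for 5 of 37 members, all higher in GRdim/dim (Ccna2, Ccnb1, Cdk1, Aurkb and Top2a), beside 7.77% of all genes tested. No member was lower without overlap (0 of 37), beside 7.05% of all genes. All 5 are mitotic genes. The two-sided exact permutation test of 1 gene with 3 against 3 libraries cannot go below 0.1, the value each of the 5 reaches.

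Top2a encodes topoisomerase II alpha, which untangles sister chromosomes and is made from S phase to mitosis (ENSMUSG00000020914, GRCm38 chr11:98992943-99024189, minus strand). Its levels were 7.71, 5.46 and 5.69 CPM in GR+/+ replicates 1 to 3 and 11.5, 11.1 and 12.3 CPM in GRdim/dim. Each GRdim/dim library was above each GR+/+ library, and the gap was wider than the range within either genotype. The log2 fold change was 0.89 with a standard error of 0.25, and the adjusted p was 0.278 in edgeR. It was the 1 member with an unadjusted p under 0.05 in all 12 other fits, including those without any 1 library, with log2 fold changes of 0.80 to 1.07. The adjusted p ranged from 0.0687 to 0.531 over those fits (edgeR and DESeq2).

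Mki67, the gene of the proliferation antigen Ki-67, was the member of its role with the highest level per kilobase and showed a different order of libraries. It was read at 10.3, 6.65 and 10.9 CPM in GR+/+ and at 9.004, 18.2 and 13.04 CPM in GRdim/dim. The first GRdim/dim library lay among the GR+/+ libraries, and replicate 2 of each genotype was the lowest and the highest of the 6. The log2 fold change was 0.53 (standard error 0.31) and edgeR gave an adjusted p of 0.648. Cenpf, a kinetochore protein, was read at 1.97, 0.540 and 2.13 CPM in GR+/+ and at 1.73, 3.41 and 3.04 CPM in GRdim/dim (log2 fold change 0.80, standard error 0.51). It had the widest spread within genotypes of its role, with 9 reads in GR+/+ replicate 2. The log2 fold changes of the remaining genes of this role were 0.55 for Cenpe, a kinesin of the kinetochore, and 0.06 for Kif11, the motor that separates the spindle poles.

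Among the genes of mitotic entry, Ccnb1 had the largest fitted difference of all members. It encodes cyclin B1, the activator of CDK1 at the start of mitosis (ENSMUSG00000041431, chr13:100778650-100786570, minus strand). Levels of Ccnb1 were 2.03, 0.899 and 1.37 CPM in GR+/+ and 2.10, 4.11 and 2.65 CPM in GRdim/dim, from 15 to 43 and 39 to 99 reads. The groups did not overlap, but the highest GR+/+ library and the lowest GRdim/dim library nearly met. The log2 fold change was 1.05 (standard error 0.43) and edgeR gave an adjusted p of 0.473. Of the 31-base windows of its annotated transcripts, 27.8% also occur in other genes, mainly the pseudogenes Ccnb1-ps, Gm12856 and Gm8416, which were counted at 0 to 2 reads.

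Ccna2 encodes cyclin A2, which serves both S phase and mitotic entry. It was read at 3.65, 2.76 and 3.05 CPM in GR+/+ and at 4.31, 5.77 and 4.33 CPM in GRdim/dim, without overlap (log2 fold change 0.61, standard error 0.30, unadjusted p above 0.05). Its exons share 510 bases with Exosc9 on the opposite strand. Of the 31-base windows of Ccna2, 12.0% also occur in other genes, among them Exosc9. Exosc9 was counted at 208 to 479 reads, against 46 to 139 for Ccna2. Cdk1, the kinase of mitosis, was read at 1.97, 2.46 and 2.32 CPM in GR+/+ and at 2.64, 3.07 and 3.55 CPM in GRdim/dim, again without overlap (log2 fold change 0.45, standard error 0.32). Cdc25b, the phosphatase that activates CDK1, was the most abundant mitotic gene per kilobase and the groups were mixed. It was read at 43.3, 33.5 and 30.6 CPM in GR+/+ and at 28.4, 43.2 and 47.9 CPM in GRdim/dim (log2 fold change 0.16, standard error 0.23). The remaining entry genes were Ccnb2 (cyclin B2, 0.54) and Foxm1 (the transcription factor that drives G2 and mitosis genes, 0.24), on the log2 fold change scale.

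**Figure D4:**
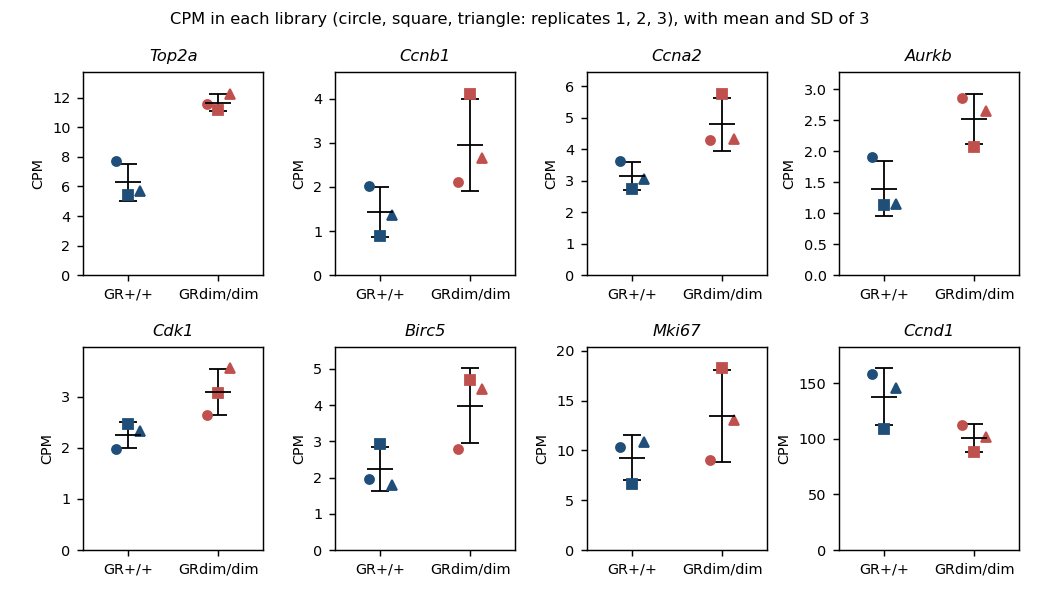
CPM of 8 members in each library (points; circle, square and triangle are replicates 1, 2 and 3), with the mean and SD of 3 libraries per genotype (bars); each panel has its own axis from 0. Top2a, Ccnb1, Ccna2, Aurkb and Cdk1 do not overlap between genotypes, while Birc5, Mki67 and Ccnd1 do.

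Among mitotic kinases and checkpoint genes, Aurkb and Birc5 stood at the top, and both proteins belong to the chromosomal passenger complex. Aurkb encodes the kinase of that complex and was read at 1.91, 1.14 and 1.14 CPM in GR+/+ and at 2.86, 2.08 and 2.65 CPM in GRdim/dim. The groups did not overlap, and the log2 fold change was 0.86 (standard error 0.39) and edgeR gave an adjusted p of 0.521. Birc5 encodes survivin (ENSMUSG00000017716, chr11:117849251-117855743, plus strand). Birc5 levels were 1.97, 2.94 and 1.81 CPM in GR+/+ and 2.80, 4.69 and 4.46 CPM in GRdim/dim. GR+/+ replicate 2 lay just above GRdim/dim replicate 1, and the log2 fold change was 0.84 (standard error 0.36) and edgeR gave an adjusted p of 0.492.

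The other 5 genes of this role had log2 fold changes of -0.12 to 0.29. Plk1, a kinase needed throughout mitosis, was read at 4.84, 7.13 and 2.70 CPM in GR+/+ and at 4.69, 5.11 and 5.49 CPM in GRdim/dim (log2 fold change 0.07, standard error 0.36). The GR+/+ libraries held both its highest and its lowest value, and the sign turned to -0.23 without GR+/+ replicate 3. Cdc20, the activator of the anaphase-promoting complex, was read at 5.14, 4.26 and 3.37 CPM in GR+/+ and at 3.02, 5.82 and 5.36 CPM in GRdim/dim (log2 fold change 0.16, standard error 0.34). It shares 26.7% of its 31-base windows with other genes, among them Gm7856 (0 to 2 reads), AC132235.3 (0 reads) and Elovl1 (2967 to 5897 reads). The exons of Elovl1 overlap those of Cdc20 by 53 bases on the opposite strand. Plk1 shares 18.7%, with Plk-ps1 (0 to 51 reads) and Gm44985 (0 to 6 reads). The kinase Aurka (0.10) and the checkpoint genes Bub1 (0.29) and Bub1b (-0.12) made up the rest of the group. Bub1b was the 1 mitotic gene below 0, with a 95% interval of -0.72 to 0.49.

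The mitotic genes as a group also differed between libraries of the same genotype. Taken as the median deviation from each gene's mean over 6 libraries, on the log2 scale, they stood at 0.02, -0.50 and -0.22 in GR+/+ and at -0.03, 0.34 and 0.33 in GRdim/dim replicates 1 to 3. The first library of each genotype was thus near the common mean, and the genotypes overlapped there. In GRdim/dim replicate 2 all 18 genes were above their mean, in replicate 3 15 and in replicate 1 7, against 10, 3 and 5 in GR+/+. GRdim/dim replicate 2 was the highest library for 8 of the 18, and GR+/+ replicate 2 the lowest for 11. Leaving out GRdim/dim replicate 2 gave a median log2 fold change of 0.31, with 16 of 18 above 0. Leaving out GRdim/dim replicate 1 gave 0.63, and leaving out GR+/+ replicate 2 gave 0.42 with 15 of 18 above 0. The median deviation of the 19 other members stayed between -0.06 and 0.08 in all 6 libraries.

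Within genotypes, the same genes tended to be high or low in the same library. After the genotype means were taken out, Pearson's r of log2 CPM over the 6 libraries had a median of 0.32 over the 153 pairs of mitotic genes, and 110 of these pairs were above 0. Pairs of all genes of like mean level had a median of 0.003. By role the median was 0.65 for kinetochore, spindle and chromosome genes, 0.50 for mitotic entry and 0.04 for mitotic kinases and checkpoint genes. The 19 other members had a median of -0.09 over 171 pairs. These r values describe 6 libraries whose points share depth and composition, and they carry no test.

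Lymphocyte markers were also read higher in GRdim/dim, but the libraries were not in the same order within GR+/+ or, for NK cell markers, within GRdim/dim. The summed CPM of 8 B cell markers was 31.7, 71.4 and 32.9 in GR+/+ and 69.6, 113 and 80.9 in GRdim/dim. The 8 T cell markers summed to 23.4 to 42.7 in GR+/+ and 37.6 to 58.9 in GRdim/dim, and the 8 NK cell markers to 7.71 to 22.8 and 26.5 to 43.1. GRdim/dim replicate 2, with the highest mitotic median, had the highest sum of all 3 lists. GR+/+ replicate 2, with the lowest mitotic median, had the highest sums among the GR+/+ libraries. Fitted log2 fold changes lay above 0 for 8 of 8 B cell, 7 of 8 T cell and 8 of 8 NK cell markers, with medians of 0.93, 0.75 and 1.14, and none passed an adjusted p under 0.05 in edgeR. Their part in the mitotic values was not tested.

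**Figure D5:**
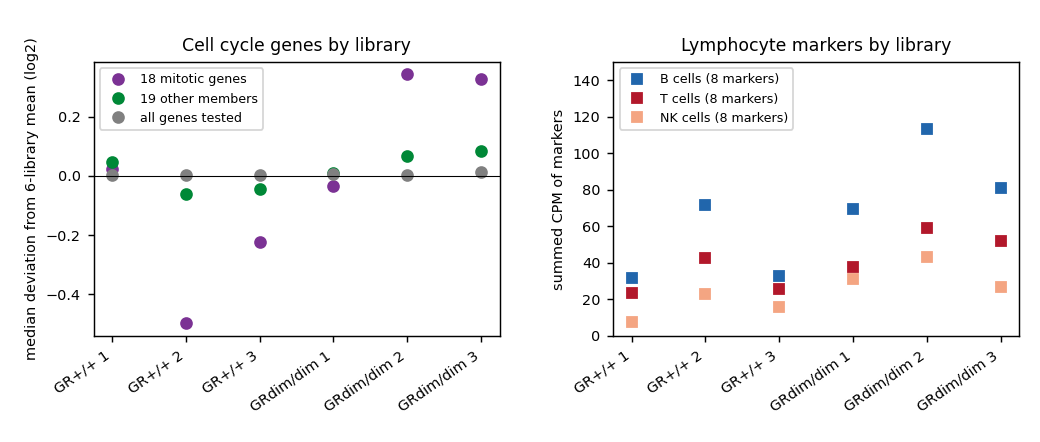
Left, median deviation from the 6-library mean (log2) of the 18 mitotic genes, the 19 other members and all genes tested, in each library. Right, summed CPM of 8 markers each of B, T and NK cells in the same libraries; GRdim/dim 2 is highest for the mitotic genes and all 3 marker lists, and GR+/+ 2 is lowest for the mitotic genes while its marker sums are the highest among the GR+/+ libraries.

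Of the plasma cell markers, the immunoglobulin joining chain gene Jchain was read at 9.502, 11.6 and 19.8 CPM in GR+/+ and at 10.6, 41.8 and 49.02 CPM in GRdim/dim, and the chaperone gene Mzb1 at 4.24, 5.34 and 5.27 and at 4.31, 8.23 and 7.88 CPM. Both were high in GRdim/dim replicates 2 and 3 and within the GR+/+ range in GRdim/dim replicate 1, as the mitotic median was. Within GR+/+ the order differed, as both were lowest in replicate 1, where the mitotic median was highest. The log2 fold changes of Jchain and Mzb1 were 1.302 and 0.458, with adjusted p of 0.456 and 0.718 in edgeR. The 7 erythroid markers found summed to 2134, 1110 and 4154 CPM in GR+/+ and to 1728, 4375 and 3392 CPM in GRdim/dim, with 5 of 6 tested above 0 and a median log2 fold change of 0.52. Their lowest and highest libraries, GR+/+ replicate 2 and GRdim/dim replicate 2, were those of the mitotic median, while GR+/+ replicate 3 was the second highest. The 4 erythroid progenitor markers summed to 76.1 to 121 CPM in GR+/+ and 70.7 to 84.2 in GRdim/dim. Most of each sum was Tfrc, at 69.6 to 116 CPM in GR+/+ and 64.3 to 80.8 in GRdim/dim. Gata1 was read at 0.359, 0.420 and 0.349 CPM in GR+/+ and at 0.162, 1.66 and 1.03 CPM in GRdim/dim, from 3 to 40 reads. Klf1 was at 0 to 13 reads, and neither gene passed the filter on low counts. Epor had a log2 fold change of -0.05.

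The 8 neutrophil markers summed to 255 to 510 CPM in GR+/+ and 356 to 1146 in GRdim/dim, with 7 of 7 tested above 0 and the highest sum in GRdim/dim replicate 1. Precursors of neutrophils divide in the bone marrow, and their granule genes Mpo, Elane and Ctsg were at 0 to 8 reads and Prtn3 at 14 to 25 reads in every library. The 7 alveolar macrophage markers, of cells that can renew themselves in the lung, summed to 334 to 397 CPM in GR+/+ and 191 to 246 in GRdim/dim, with 1 of 7 above 0. The largest part of these sums was Chil3, at 244, 250 and 264 CPM in GR+/+ and 161, 156 and 95.6 CPM in GRdim/dim. Chil3 did not overlap between genotypes, while each of the other markers of this list did. The 5 monocyte markers summed to 124 to 203 and 142 to 308 CPM. For the 9 lists of structural lung cells, from type 2 cells to pulmonary vein cardiomyocytes, the median log2 fold changes were -0.36 to 0.19. None of the markers in this paragraph or the one before passed an adjusted p under 0.05 in edgeR, and their part in the values of the 37 genes was not tested.

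The G1 cyclins and their kinases were abundant and their groups overlapped. Ccnd1, cyclin D1, leaned the other way from the mitotic genes (ENSMUSG00000070348, chr7:144929931-144939925, minus strand). Its levels were 158, 109 and 146 CPM in GR+/+ and 112, 87.9 and 101 CPM in GRdim/dim. GR+/+ replicate 2 lay below GRdim/dim replicate 1, so the groups overlapped by a pair of libraries. The log2 fold change was -0.45 (standard error 0.19), with an unadjusted p under 0.05 and an edgeR adjusted p of 0.477. Its sign held in all 12 other fits, with values of -0.59 to -0.34. Its exons share 1100 bases (23.4%) with a gene annotated as LTO1 on the opposite strand. Strand use in the authors' counting is not stated, so reads of the overlap could belong to either gene.

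The other D cyclins had fitted differences above 0. Ccnd2, cyclin D2, was read at 96.9, 68.6 and 112 CPM in GR+/+ and at 121, 92.6 and 81.2 CPM in GRdim/dim (log2 fold change 0.08, standard error 0.22). Ccnd3, cyclin D3, had a log2 fold change of 0.34 with a 95% interval of -0.06 to 0.74. Cdk4, the most abundant kinase of the list, was read at 82.6, 89.0 and 99.1 CPM in GR+/+ and at 79.2, 101 and 131 CPM in GRdim/dim (log2 fold change 0.20, standard error 0.20). It overlaps Tspan31 on the opposite strand by 641 bases (19.7% of its exons). Cdk6, the other kinase that D cyclins activate, was at -0.01 with a 95% interval of -0.38 to 0.35.

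At the G1/S step, Cdk2 and its cyclins were read at a lower level. Cdk2, the kinase of S phase entry, was read at 32.9, 41.2 and 29.5 CPM in GR+/+ and at 37.9, 40.8 and 41.1 CPM in GRdim/dim (log2 fold change 0.21, standard error 0.18). Ccne1, cyclin E1, was read at 1.25, 1.80 and 1.40 CPM in GR+/+ and at 1.51, 0.955 and 2.45 CPM in GRdim/dim, so that GRdim/dim held both its lowest and its highest library. Its log2 fold change of 0.13 (standard error 0.45) turned to -0.27 without GRdim/dim replicate 3. Ccne2, cyclin E2, was at 0.17 and E2f1, the activating transcription factor of this step, at -0.13.

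Of the 8 replication genes 6 lay above 0, and the libraries of the genotypes overlapped for all 8. Pcna was read at 65.4, 61.3 and 83.1 CPM in GR+/+ and at 70.6, 70.9 and 79.4 CPM in GRdim/dim, with a log2 fold change of 0.07 and a 95% interval of -0.31 to 0.45. It shares 23.3% of its 31-base windows with other genes, among them Pcna-ps2, which was counted at 97 to 365 reads. Mcm5, a subunit of the replicative helicase, had the widest spread of the role, at 12.97, 7.97 and 6.07 CPM in GR+/+ and 10.03, 6.65 and 9.17 CPM in GRdim/dim. Its log2 fold change was -0.06 with a standard error of 0.32. The other helicase subunits Mcm2, Mcm3 and Mcm6 were at 0.18, 0.12 and 0.12. Of the genes of nucleotide supply, the ribonucleotide reductase subunits Rrm1 and Rrm2 were at -0.14 and 0.36 (95% interval of Rrm2 -0.32 to 1.04) and thymidylate synthase Tyms at 0.07.

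The inhibitors were the members with the lowest median. Cdkn1b was read at 150, 184 and 167 CPM in GR+/+ and at 138, 216 and 139 CPM in GRdim/dim, with a log2 fold change of -0.02 and a 95% interval of -0.48 to 0.44. GRdim/dim held both its highest and its lowest library. Cdkn2c, p18, an inhibitor of CDK4 and CDK6, was read at 21.4, 21.6 and 22.5 CPM in GR+/+ and at 12.6, 22.5 and 19.7 CPM in GRdim/dim (log2 fold change -0.26, standard error 0.24). The GR+/+ libraries were nearly equal, and the low value came from GRdim/dim replicate 1.

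Further genes of the same machinery were grouped in lists by textbook role. Of 40 further mitotic genes 38 passed the filter on low counts, 34 of 38 lay above 0, and the median log2 fold change was 0.29. None was called. Unadjusted p was under 0.05 for 4 of the 38, all higher in GRdim/dim, beside 4.91% of all genes tested. They were Ube2c (1.13, standard error 0.34), the ubiquitin-conjugating enzyme of mitotic exit, Racgap1 (0.86, 0.30), a regulator of cytokinesis, Kif2c (1.32, 0.48), a microtubule depolymerase of centromeres, and Cenpa (0.70, 0.28), the centromeric histone. Ube2c was read at 3.05, 2.10 and 3.21 CPM in GR+/+ and at 4.91, 8.43 and 4.97 CPM in GRdim/dim, the lowest adjusted p of the list being 0.318 in edgeR. All 4 were without overlap between genotypes, and so were Ndc80, Nuf2, Mad2l1, Cks1b and Bub3, with log2 fold changes of 0.79, 1.01, 0.37, 0.73 and 0.28. That made 9 of 38 higher without overlap, beside 7.77% of all genes tested. GRdim/dim replicate 2 was the highest library for 17 of the 40 genes and GR+/+ replicate 2 the lowest for 21.

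The 24 further replication genes had a median log2 fold change of 0.19, with 16 above 0 and none called. Slbp, the histone mRNA binding protein, was the 1 of 24 with an unadjusted p under 0.05, beside 4.91% of all genes tested that were higher. It was read at 26.0, 26.9 and 30.9 CPM in GR+/+ and at 36.1, 42.4 and 38.1 CPM in GRdim/dim (log2 fold change 0.48, standard error 0.18, adjusted p 0.431 in edgeR). Cdt1, a licensing factor, and Cdc7, the kinase that fires origins, also did not overlap, at 0.30 and 0.55. That made 3 of 24 higher without overlap, beside 7.77% of all genes tested. The 5 further inhibitors of cyclin-dependent kinases, p21 (Cdkn1a) among them, had log2 fold changes of -0.16 to 0.29 and none had an unadjusted p under 0.05.

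Of 17 pocket protein, other E2F and MuvB genes, which form the switch between rest and cycling, 8 lay above 0 and the median was -0.0061. Tfdp2, a dimer partner of E2F proteins, was lower in GRdim/dim without overlap, at 110, 110 and 156 CPM in GR+/+ against 94.0, 106 and 71.9 CPM (log2 fold change -0.47, standard error 0.20, adjusted p 0.499 in edgeR). The repressive factors E2f4 and E2f7 and the MuvB subunit Lin37 were higher without overlap, at 0.22, 0.51 and 0.41. Each had an unadjusted p above 0.05 in edgeR. That made 3 of 17 higher without overlap, beside 7.77% of all genes tested, and 1 of 17 lower, beside 7.05%. None of the list was called.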

How the data were processed

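Lung RNA of 3 GR+/+ and 3 GRdim/dim mice was sequenced as bulk mRNA. The table that the authors deposited holds whole-number counts of reads for each gene, not normalized, with gene coordinates and lengths. The submitters' processing notes name mm10 and DESeq2, and the aligner, counter, annotation release and strand setting are not given in the sources used here. No column of per-sample values was unused. The deposited counts were fitted with the quasi-likelihood model of edgeR 4.0.16 (R 4.3.3), after filterByExpr and TMM scaling, with a robust prior and Benjamini-Hochberg adjustment over 16568 genes. A gene was called at an adjusted p under 0.05 and a log2 fold change beyond 0.5. DESeq2 1.42.0 was an alternative. CPM were divided by TMM factors, and log2 CPM used a prior count of 2. Deviations and correlations used log2 CPM. Levels between genes are CPM per kilobase of the deposited gene length. The fit was tested on simulated counts. Shared 31-base windows and exon overlap came from GENCODE M21, and promoters from RefSeq (GRCm38.p6). With 3 libraries per genotype, precision is limited by the spread between animals, and for the mitotic genes by their few reads.

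The 37 members, the role groups, the 7 pathway lists and the 19 marker lists were chosen with earlier results of these data known. 1 gene of the plasma cell marker list is not reported here, so that list is given gene by gene. Values in every library are given for members that were called, had an unadjusted p under 0.05, did not overlap, or had the highest level per kilobase or the widest spread of their role (20 members). Other members are given by their log2 fold change. Of the pathway lists, genes called, with an unadjusted p under 0.05 or without overlap are named.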

Additional observations from a re-analysis of the deposited data

How the results depend on the processing

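The 12 other fits used RLE in place of TMM, left out the filter on low counts, asked for 10 counts in every library, used DESeq2, added a replicate block or a covariate from sex-linked transcripts, or left out 1 library. No member was called in any of them; with the minimum of 10 counts Cenpf was not tested, which left 36. Calls over all genes, 28 as reported, came to 522 with no filter, 274 in DESeq2 and 4 to 22 without 1 library. The lowest, 4, was without GR+/+ replicate 2. Members with an unadjusted p under 0.05, 4 as reported, numbered 1 to 6 without 1 library. There was 1 without GR+/+ replicate 3, beside 1372 of 16843 genes tested. There were 2 without GRdim/dim replicate 2 or 3, beside 1477 of 16865 and 1971 of 17120 genes. Without GRdim/dim replicate 1 there were 6, beside 1615 of 16904 genes. The median log2 fold change of the members was 0.12 to 0.29 without 1 library, highest without GR+/+ replicate 1. Members without overlap, 5 as reported, numbered 7 to 14 with 1 library fewer, where overlap is less likely by construction. The share over all genes was not computed with 1 library fewer, so these counts cannot be compared with the 5. The median correlation of member pairs within roles, 0.11, was 0.05 to 0.34 without 1 library.

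Signs turned for 8 named members, all with small differences, and the cause was not tested. With the sex covariate Ccne1 was at -0.073 and Cdkn1b at 0.11. Without 1 library the log2 fold changes ranged from -0.089 (GR+/+ replicate 2) to 0.25 for Ccnd2, which was also at -0.087 without GRdim/dim replicate 1, and from -0.0025 (GRdim/dim replicate 3) to 0.37 for Cdk4. They ranged from -0.27 (GRdim/dim replicate 3) to 0.41 for Ccne1, from -0.28 to 0.30 (GR+/+ replicate 1) for Mcm5, which was also at 0.10 without GRdim/dim replicate 2, and from -0.23 (GR+/+ replicate 3) to 0.45 for Plk1. Cdc20 ranged from -0.020 (GRdim/dim replicate 2) to 0.41, Pcna from -0.0088 (GR+/+ replicate 2) to 0.22, and Cdkn1b from -0.27 to 0.10, above 0 without GR+/+ replicate 2 (0.057), GRdim/dim replicate 1 (0.096) or GRdim/dim replicate 3 (0.087).

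The replicate numbers are shared between genotypes, but the deviations of same-numbered libraries had r = 0.22, 0.036 and -0.055 over genes, so the numbers were not taken as pairs. With the replicate block 34 genes and 0 members were called, and the median of the members was 0.15. In that fit 3 members had an unadjusted p under 0.05, beside 1722 of 16568 genes tested. Mitotic genes with few reads have standard errors of up to 0.51 on the log2 scale.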

Other observations

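The MYC network, the transcription factors that drive or oppose growth through shared DNA sites, held the lowest adjusted p among the pathway lists. Mxd1, an antagonist of MYC that is made as cells stop dividing and is abundant in neutrophils, was read at 110, 87.5 and 78.0 CPM in GR+/+ and at 208, 187 and 169 CPM in GRdim/dim, without overlap. Its log2 fold change was 1.04 with a standard error of 0.18, and its adjusted p was 0.0693 in edgeR. It was called in 2 of the 12 other fits, by DESeq2 (adjusted p 0.000366) and by edgeR without the filter on low counts (adjusted p 0.000112), with a range of 0.000112 to 0.241 over the 12. Mycn was read at 2.39, 4.08 and 2.03 CPM in GR+/+ and at 0.9705, 0.872 and 1.03 CPM in GRdim/dim (log2 fold change -1.55, standard error 0.41, adjusted p 0.251 in edgeR, 0.0708 to 0.562 over the other fits). Mxd4, another antagonist, was lower without overlap (log2 fold change -0.46, standard error 0.18). With Mycn, 2 of 8 genes were lower without overlap, beside 7.05% of all genes tested. Mxd1 was the 1 of 8 higher without overlap, beside 7.77%. The median of the 8 genes was -0.13.

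The BTG and TOB genes, which slow proliferation, lay above 0 in 5 of 5, with a median log2 fold change of 0.33 and no unadjusted p under 0.05. Of 11 DNA damage response genes, Plk2 was at 0.52 (standard error 0.23) and Trp53inp1 at -0.35 (standard error 0.15), each with an unadjusted p under 0.05. Trp53inp1 was read at 152, 142 and 149 CPM in GR+/+ and at 122, 122 and 104 CPM in GRdim/dim. Its groups did not overlap, which made 1 of 11 lower without overlap, beside 7.05% of all genes tested. Its adjusted p was 0.5003 in edgeR, and the median of the list was -0.05.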
